A study of Mus musculus with 54 samples.

Results

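The mRNA of 10 genes of the circadian clock was followed in hematopoietic stem cells (HSC) of the mouse after the prostaglandin analogue dmPGE2, after radiation and after both. The genes were taken by symbol from the deposited table of read counts: Per1, Per2, Cry1, Cry2, Arntl, Nr1d1, Nr1d2, Dbp, Tef and Bhlhe40. They are 10 of the 24421 genes in that table, and all 10 were among the 14320 genes that passed the filter on low counts. Their counts ran from 48 to 5362 reads per library, so none was measured near the lower limit of detection.

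The clock is a loop of transcription factors found in most cells. ARNTL (also called BMAL1) pairs with CLOCK and switches on the Per and Cry genes, whose proteins return to block ARNTL and CLOCK. The same pair switches on Nr1d1 and Nr1d2, which encode the repressors REV-ERB alpha and beta of Arntl, and the output genes Dbp and Tef, which encode transcription factors of the PAR bZIP family. Bhlhe40 encodes DEC1, a repressor that competes for the same DNA sites. Per1 is also a rapid target of cAMP signalling and of glucocorticoids, and the PGE2 receptors EP2 and EP4 raise cAMP.

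Fgd5 mice on a C57BL/6 background, whose HSC carry the green protein ZsGreen, received dmPGE2 or its ethanol vehicle under the skin 30 min before irradiation with 8.53 Gy, the 50% lethal dose. dmPGE2 is a long-lived form of prostaglandin E2. Bone marrow was taken at 1 h or 24 h, and HSC were sorted by surface markers (the SLAM-LSK gate, widened) together with the reporter. The groups were irradiated mice with dmPGE2 (IR-PGE, n = 8) and with vehicle (IR-VEH, n = 8) at 1 h, non-irradiated mice with dmPGE2 at 1 h (NI-PGE, n = 7), IR-PGE (n = 8) and IR-VEH (n = 8) at 24 h, and non-irradiated mice with vehicle (NI-VEH, n = 15) from both times. Males and females were included, and no age is given. The labels state the dmPGE2 dose in 2 ways that disagree, so no dose is given here. No group was without an injection, and no dmPGE2 group without radiation was taken at 24 h.

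All 15 NI-VEH libraries were pooled as the baseline, because their column names carry no time. The names also carry an S number, which was not used. By it, some baseline columns lie among the 1 h columns and the others directly before the 24 h columns. The labels give neither the hour of injection nor that of killing, so a difference from time of day and one from treatment cannot be told apart wherever groups were killed at different hours. The baseline also mixes both times. Fewer cells of a type and less RNA per cell cannot be told apart in these bulk samples. Depth was similar throughout, with 15049364 to 26217041 counted reads per library.

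The column names carry a tag such as 5-1, and 7 of the 8 baseline tags occur on 2 baseline libraries. All baseline tags also occur on libraries of the 1 h groups, and none on those of the 24 h groups. The deviations of same-tag baseline libraries from the group mean, over all tested genes, correlated at r = 0.0735 to 0.377 (median 0.218), against a median of -0.0942 for the other pairs. All 7 same-tag pairs were of 1 sex by counts of sex-linked genes. Those counts gave 10 males and 5 females in the baseline, where the labels give 8 and 7. In the median same-tag pairs differed less than other pairs, but by more than counting noise, which separate preparations of 1 mouse would also do. Whether the 15 libraries are 15 mice cannot be told, so the spread between them may be in part technical, and results against the baseline were also computed with the counts summed per tag, which leaves 8 libraries. In the 24 h IR-PGE group libraries 5, 6 and 7, all male, stood apart from the other 5 on principal components 2 and 3. Results that rest on these libraries are given with and without them, apart from the counts of cell type markers.

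Markers of HSC were present in every library, beside some markers of later progenitors. Fgd5, the reporter's own gene, ran from 41.8 to 124 CPM (the usual sequencing unit, reads of a gene scaled to a fixed library total), Kit from 497 to 1992 CPM and Procr from 54.2 to 255 CPM over the 54 libraries, and of 3 markers that later progenitors carry, Cd48 ran from 4.48 to 38.2 CPM, Flt3 from 3.94 to 172 CPM and Cd34 from 301 to 806 CPM. CPM of the markers in this paragraph are read counts divided by each library's unadjusted total. The sums of megakaryocyte, neutrophil, mast and basophil, and stromal markers below are on that scale too. All other levels below are read counts divided by each library's TMM-adjusted total.

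On mm10, the build of the count table, Per1 lies on chromosome 11 at 69098956-69109957 (+ strand) and Nr1d1 on the same chromosome at 98767932-98775377 (- strand). Tef lies on chromosome 15 at 81802673-81826863 (+), Nr1d2 on chromosome 14 at 18204056-18239106 (-) and Bhlhe40 on chromosome 6 at 108660629-108666925 (+). The other members lie on chromosomes 1 (Per2, 91415982-91459328, -), 10 (Cry1, 85131700-85185054, -), 2 (Cry2, 92403647-92434069, -) and 7 (Arntl, 113207465-113314126, +, and Dbp, 45705247-45710203, +). Counts cover the exons of each gene, UTRs included. Of the 1678 exon bases of Dbp, 539 overlap exons of Sphk2 on the opposite strand, and since the libraries mark no strand, reads of both genes cannot be told apart there unless the counting set them aside. The same holds for 149 bases of Cry2 (with D930015M05Rik) and 118 bases of Bhlhe40 (with 0610040F04Rik).

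The windows of 250 bases before the annotated starts were read for 8 of the 10 members from RefSeq (GRCm38.p6), in 11 windows. They are shown for the 3 members in which 1 of the clock or cAMP motifs was found. The motifs searched on both strands were the E-box CACGTG, which ARNTL and CLOCK bind, the cAMP response element TGACGTCA and its 6-base core TGACGT, the D-box as TTATGTAA or TTACGTAA, which DBP and TEF bind, and the element TAGGTCA of the REV-ERB proteins. Capitals mark the E-box or, in the second Per1 window, the cAMP response element core.
Per1, chr11:69098699-69098948, + strand: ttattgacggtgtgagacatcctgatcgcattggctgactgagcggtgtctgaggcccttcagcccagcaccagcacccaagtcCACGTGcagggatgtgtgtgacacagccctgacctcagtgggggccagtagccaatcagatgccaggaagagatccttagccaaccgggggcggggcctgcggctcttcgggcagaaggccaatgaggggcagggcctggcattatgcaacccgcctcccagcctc
Per1, chr11:69099902-69100151, + strand: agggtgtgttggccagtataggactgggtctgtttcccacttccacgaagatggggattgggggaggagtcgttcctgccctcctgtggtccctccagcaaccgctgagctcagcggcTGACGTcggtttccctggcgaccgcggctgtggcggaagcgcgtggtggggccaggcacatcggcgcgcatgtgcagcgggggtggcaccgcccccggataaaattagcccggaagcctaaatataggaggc
Cry1, chr10:85185055-85185304, - strand: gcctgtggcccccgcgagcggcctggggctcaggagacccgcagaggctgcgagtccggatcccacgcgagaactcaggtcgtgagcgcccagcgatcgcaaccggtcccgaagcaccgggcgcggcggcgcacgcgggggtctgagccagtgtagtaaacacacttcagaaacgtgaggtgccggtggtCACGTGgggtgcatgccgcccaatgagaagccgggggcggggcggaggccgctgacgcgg
Tef, chr15:81802423-81802672, + strand: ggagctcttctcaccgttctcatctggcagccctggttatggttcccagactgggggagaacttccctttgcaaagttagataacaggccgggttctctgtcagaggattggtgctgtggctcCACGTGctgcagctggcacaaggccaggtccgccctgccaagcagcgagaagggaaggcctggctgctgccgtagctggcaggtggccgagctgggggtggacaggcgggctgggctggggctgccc
Tef, chr15:81811164-81811413, + strand: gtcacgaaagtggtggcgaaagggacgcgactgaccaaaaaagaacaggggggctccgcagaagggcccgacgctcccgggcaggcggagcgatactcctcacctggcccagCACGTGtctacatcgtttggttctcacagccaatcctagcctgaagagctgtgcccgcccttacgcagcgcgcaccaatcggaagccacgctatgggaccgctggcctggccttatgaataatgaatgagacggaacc
The Per1 E-box begins 166 bases before the first start and the cAMP core 132 bases before the second. The E-box stands 60 bases before the start of Cry1, and 127 and 138 bases before the 2 starts of Tef. Of 32851 such windows over all genes, 6.02% hold an E-box, 6.47% the cAMP core, 1.55% the full cAMP element, 0.931% a D-box and 2.23% the REV-ERB element. These letters are a description of the windows and not a measured binding site.

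Per kilobase of exon, the baseline order of levels was Nr1d2 (16.05 CPM per kb), Arntl (14.4), Tef (12.3), Cry1 (11.8), Cry2 (11.2), Bhlhe40 (9.90), Per1 (8.79), Nr1d1 (8.35), Dbp (7.97) and Per2 (3.69). HSC thus carried mRNA of both arms of the loop and of its outputs. The spread between baseline libraries differed by gene: the coefficient of variation was 64.01% for Per1 and 35 to 36% for Bhlhe40 (35.6%) and Arntl (35.3%), against 14.7% for Cry2, 15.8% for Cry1 and 16.3% for Nr1d1 and for Dbp.

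**Figure D1:**
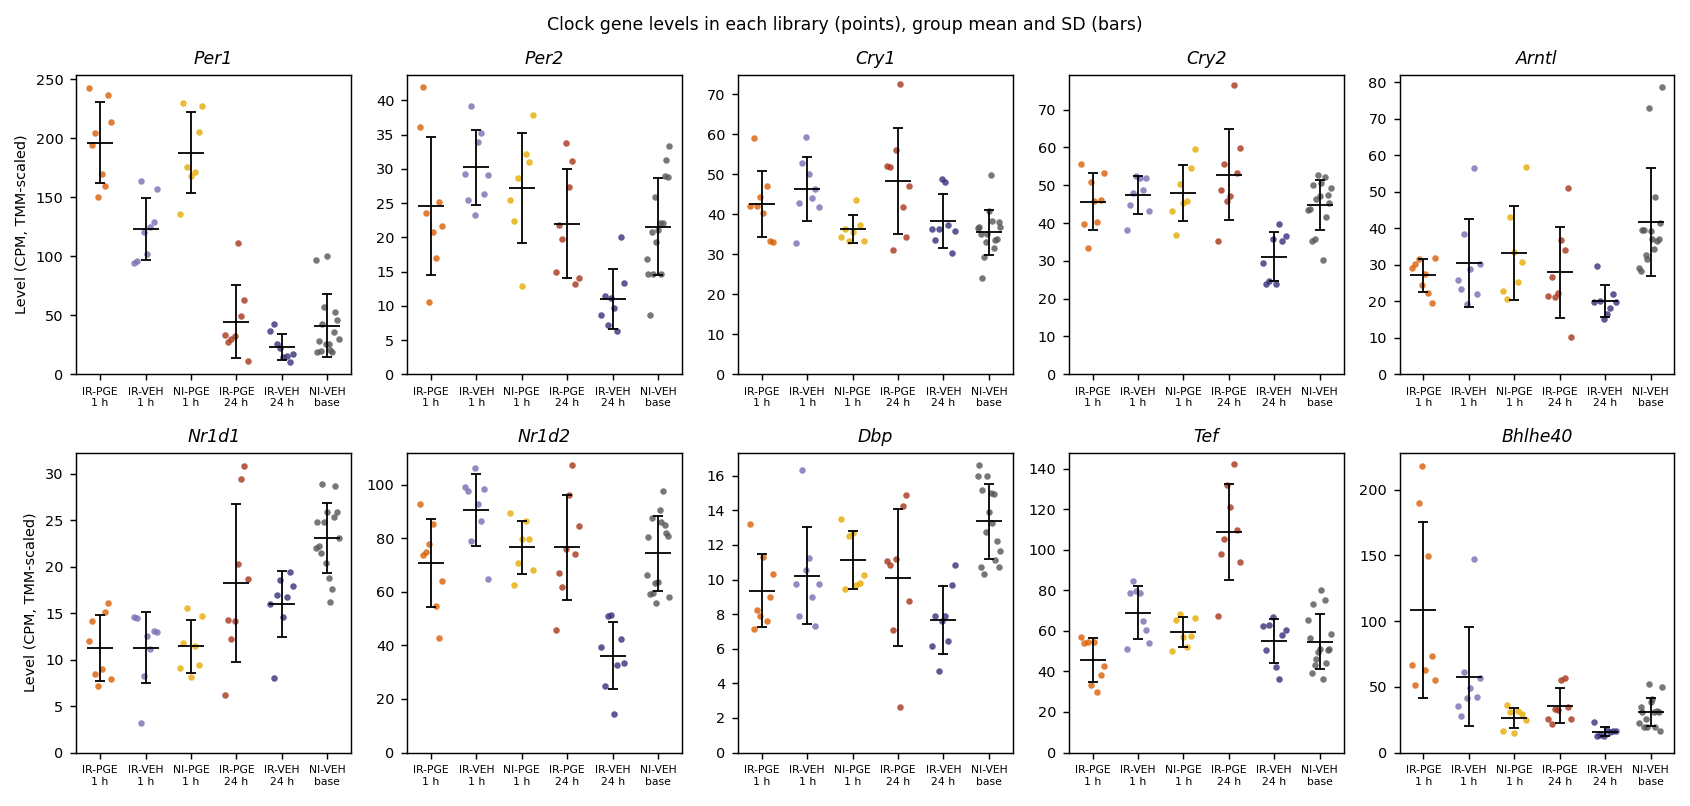
Levels of the 10 clock genes in each of the 54 libraries. Each panel is 1 gene, the vertical axis is the level in CPM from 0, points are libraries, and bars are the group mean and SD; IR is irradiated, NI non-irradiated, PGE dmPGE2 and VEH vehicle. Per1 stands above every baseline library in both 1 h dmPGE2 groups, Nr1d1 below every baseline library in the 3 treated 1 h groups, and Tef is highest in 24 h IR-PGE.

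At 1 h Per1 was higher and Nr1d1 lower than baseline in each of the 3 treated groups, Bhlhe40 was higher in both irradiated groups, and Cry1, Arntl and Dbp were each called in 1 of these groups. A gene is called when the adjusted p of edgeR's quasi-likelihood test (Benjamini-Hochberg, over all 14320 genes) is below 0.05. Under IR-PGE against NI-VEH 2 members were called higher and 3 lower, where 18.3% of all tested genes were called. Under IR-VEH against NI-VEH 3 were higher and 1 lower (16% of all genes). Under NI-PGE against NI-VEH 1 was higher and 1 lower (11.1%). These 3 comparisons share the baseline libraries.

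The effect of dmPGE2 within irradiated mice at 1 h, IR-PGE against IR-VEH, called 1 member higher and 1 lower of 10, where 14.8% of all genes were called. Radiation within dmPGE2-treated mice, IR-PGE against NI-PGE, called 1 member higher, where 0.377% of all genes were called. The difference between the dmPGE2 effects with and without radiation was called for 2 members, both lower (2.97% of all genes).

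At 24 h 8 members were lower than baseline in irradiated vehicle mice, and 6 were higher in irradiated dmPGE2 mice than in those. IR-VEH at 24 h had 8 of the 10 members lower than NI-VEH and none higher, in a comparison that called 49.7% of all genes and 26.5% in that direction. IR-PGE at 24 h had 2 members higher and 1 lower than NI-VEH, where 36.4% of all genes were called. Between the 2 irradiated groups, IR-PGE against IR-VEH, 6 members were higher and none lower (23.9% of all genes, 12.4% higher). Without IR-PGE 5, 6 and 7 these were 4 members, Per2, Cry2, Nr1d2 and Tef (7.72% of all genes called), and IR-PGE against NI-VEH then had 2 higher and 3 lower, with Nr1d1 and Dbp added to Arntl (38.2%). With all libraries the median log2 fold change of the members in IR-PGE against IR-VEH was 0.85, against 0.03 over all genes, and in IR-VEH against NI-VEH it was -0.82, against -0.06. These comparisons share the 24 h IR-VEH libraries, so they are not independent of each other. Between 1 h and 24 h, 2 members rose and 2 fell in IR-PGE (36.3% of all genes called) and 6 fell in IR-VEH (50.9%). The dmPGE2 effect in irradiated mice differed between the times for 4 members, each more positive at 24 h (25.4% of all genes, 12.9% in that direction).

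Markers of cell types moved in the same comparisons. The sum of HSC markers is on the TMM-adjusted scale and the other sums are on unadjusted library totals, so different sums are not compared with each other. The summed level of 11 HSC markers, without Cd34, Flt3 and Cd48, was 3451 to 5194 CPM in IR-PGE and 2974 to 3949.5 CPM in IR-VEH at 24 h, against 4056.5 to 5764 CPM in NI-VEH. The sum of 8 megakaryocyte markers was 278 to 995 CPM in IR-PGE and 870 to 1821 CPM in IR-VEH at 24 h, against 444 to 782 CPM in NI-VEH, and none of the 8 was at 0 throughout a 24 h group. The sum of 12 neutrophil markers was 285 to 910 CPM in IR-PGE, 90.4 to 585 CPM in IR-VEH and 278 to 1812 CPM in NI-VEH. By gene, IR-PGE against IR-VEH at 24 h called 23.9% of all genes, 12.4% higher and 11.5% lower. It had 4 of these 11 HSC markers, 4 of 12 neutrophil, 3 of 8 monocyte and 4 of 8 stromal markers higher. None of these lists had a marker lower, and 5 of the 7 tested megakaryocyte markers were lower. Erythroid markers had 1 higher and 1 lower of 6 tested, and dendritic markers 1 higher and 2 lower of 6 tested. T and NK cell markers had 1 lower of 9 tested. Mast and basophil markers and endothelial markers had 1 higher each and none lower, and no B cell marker was called. These marker counts include IR-PGE 5, 6 and 7 and were not computed without them. Flt3 (2.89, adjusted p = 1.69e-06) and Cd34 (0.58, adjusted p = 8.88e-05) were higher too. IR-VEH against NI-VEH at 24 h called 49.7% of all genes, 26.5% lower and 23.3% higher. Of all 14 HSC markers, with Cd34, Flt3 and Cd48, 10 were lower there and 1 higher. Lower were also 5 of 6 mast and basophil, 4 of 6 tested erythroid, 4 of 8 stromal and 5 of 8 endothelial markers. Higher were 4 of the 7 megakaryocyte markers, 1 erythroid and 1 stromal marker. Other lists went both ways, with 2 higher and 2 lower of 5 tested B cell markers, and 2 higher and 1 lower of 9 tested T and NK cell markers. Of 8 monocyte markers 1 was higher and 2 lower, and of 6 tested dendritic markers 1 was higher and 3 lower. Of 12 neutrophil markers 3 were lower and none higher. The mast and basophil sum ran from 0.244 to 264 CPM in IR-PGE, from 1.35 to 55.4 CPM in IR-VEH and from 2.75 to 588 CPM in NI-VEH. The stromal sum ran from 32.0 to 400 CPM in IR-PGE, from 18.3 to 71.2 CPM in IR-VEH and from 36.8 to 91.1 CPM in NI-VEH. The part of such shifts in the clock gene results was not tested.

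Per1, a repressor of the loop and an early target of cAMP, had the largest log2 fold change of the members against NI-VEH in each treated 1 h group. It had 149.9, 199 and 242 CPM (lowest, median, highest) in IR-PGE and 94.6, 122 and 164 CPM in IR-VEH at 1 h, 136, 176 and 229 CPM in NI-PGE, and 18.8, 29.6 and 100.6 CPM in NI-VEH. Every library of both dmPGE2 groups lay above every baseline library, while IR-VEH overlapped the baseline at its edge, where the 2 highest baseline libraries (97.2 and 100.6 CPM) both carry tag 5-1.

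Against NI-VEH the log2 fold change of Per1 was 2.25 ± 0.27 (SE, adjusted p = 4.29e-09) in IR-PGE, 1.58 ± 0.27 (adjusted p = 1.34e-05) in IR-VEH and 2.18 ± 0.28 (adjusted p = 4.19e-08) in NI-PGE. Radiation with vehicle and dmPGE2 alone thus each stood with higher Per1 at 1 h. The combination was at 196 ± 34.6 CPM in IR-PGE, against 188 ± 34.3 CPM in NI-PGE (SD, n = 8 and 7), a log2 difference of 0.07 with a 95% interval from -0.60 to 0.73. The difference between the dmPGE2 effects with and without radiation was -1.51 ± 0.43 (adjusted p = 0.036). That call ended when baseline counts were summed per tag (-1.48, adjusted p = 0.0543). It also ended without any 1 of 8 libraries (IR-PGE 4, 5 and 6, IR-VEH 3 and 8, NI-PGE 2, 6 and 7), where the adjusted p reached 0.0653 at the most.

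Within irradiated mice at 1 h, Per1 was at 196 ± 34.6 CPM in IR-PGE and 123 ± 26.3 CPM in IR-VEH (SD, n = 8 each). The log2 fold change of 0.67 ± 0.32 was not called over the shared spread of all groups (adjusted p = 0.169), but was with these groups fitted alone (0.67, adjusted p = 0.00103). The ranges overlapped at their edges, where IR-VEH 3 and 8, at 164 and 157 CPM, exceeded the lowest IR-PGE library.

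At 24 h Per1 had come down in both irradiated groups. It had 11.6, 32.9 and 111 CPM in IR-PGE and 10.7, 19.8 and 42.4 CPM in IR-VEH. Against 1 h the log2 fold change was -2.14 ± 0.33 (adjusted p = 9.68e-07) in IR-PGE and -2.41 ± 0.34 (adjusted p = 4.57e-08) in IR-VEH, with no overlap in either.

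IR-PGE was above IR-VEH at 24 h by 0.95 ± 0.33 (log2, adjusted p = 0.0281), and this rested on few libraries. IR-PGE 5, 6 and 7, which stand apart, held the 3 highest values (111, 49.4 and 62.6 CPM), and without them the log2 fold change was 0.21 (adjusted p = 0.766). The call also ended without IR-PGE 5 or 7 or IR-VEH 5, 6 or 7 alone (adjusted p at most 0.173), with sex as a covariate (0.99, adjusted p = 0.107), and with the 2 groups fitted alone (adjusted p = 0.0927). IR-VEH at 24 h was below NI-VEH by -0.84 ± 0.29 (adjusted p = 0.0155), or by -0.49 (adjusted p = 0.106) without both tag 5-1 baseline libraries.

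Per2, the partner of Per1 in the repressor complex, was not called at 1 h. It averaged 24.6 ± 10.1 CPM in IR-PGE and 30.2 ± 5.44 CPM in IR-VEH at 1 h (SD, n = 8 each), 27.2 ± 8.03 CPM in NI-PGE (n = 7) and 21.5 ± 7.07 CPM in NI-VEH (n = 15). The log2 fold change of IR-VEH over NI-VEH was 0.49 with a 95% interval from 0.07 to 0.90 (adjusted p = 0.104; 0.0486 with the 2 groups fitted alone).

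At 24 h Per2 had 13.1, 20.8 and 33.8 CPM in IR-PGE and 6.25, 10.4 and 20.1 CPM in IR-VEH, against 8.60, 21.0 and 33.4 CPM in NI-VEH. IR-PGE was thus close to the baseline level, while IR-VEH was about 1 log2 unit lower than either. The log2 fold change was 1.00 ± 0.24 (adjusted p = 0.0018) for IR-PGE over IR-VEH and -0.97 ± 0.22 (adjusted p = 2.15e-04) for IR-VEH over NI-VEH. For IR-PGE over NI-VEH it was 0.03, with a 95% interval from -0.39 to 0.45. The dmPGE2 effect was larger at 24 h than at 1 h by 1.30 ± 0.34 (adjusted p = 0.00344).

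The cryptochromes CRY1 and CRY2 carry much of the repression of ARNTL and CLOCK, and at 1 h their genes were called in 1 comparison, Cry1 in IR-VEH against NI-VEH. Cry1 averaged 42.6 ± 8.28 CPM in IR-PGE and 46.3 ± 7.92 CPM in IR-VEH (SD, n = 8 each), against 35.5 ± 5.63 CPM in NI-VEH (n = 15). IR-VEH was higher than NI-VEH by 0.38 ± 0.11 (log2, adjusted p = 0.0124), a call that ended with the baseline summed per tag (0.36, adjusted p = 0.062). In NI-PGE Cry1 was at 36.3 ± 3.53 CPM (n = 7), and the log2 fold change over NI-VEH was 0.03 with an interval from -0.21 to 0.27.

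Cry1 was the only member that was higher than NI-VEH in IR-PGE at 24 h besides Tef. It had 31.0, 49.4 and 72.5 CPM in IR-PGE and 30.4, 36.3 and 48.9 CPM in IR-VEH at 24 h, with wide overlap, against 24.2, 35.1 and 49.7 CPM in NI-VEH. Its log2 fold change was 0.44 ± 0.11 (adjusted p = 0.00144) over NI-VEH and 0.33 ± 0.13 (adjusted p = 0.0537) over IR-VEH. Without 1 of IR-PGE 3 or 7 or IR-VEH 4 or 5 the difference from IR-VEH was called as well, with an adjusted p down to 0.0131.

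Cry2 was nearly level at 1 h and lower in IR-VEH at 24 h. Its 1 h means were 45.6 ± 7.55 CPM in IR-PGE, 47.3 ± 5.08 CPM in IR-VEH and 47.96 ± 7.51 CPM in NI-PGE, against 44.7 ± 6.59 CPM in NI-VEH. At 24 h it had 35.3, 51.03 and 76.6 CPM in IR-PGE and 23.8, 32.2 and 39.7 CPM in IR-VEH, where 1 IR-PGE library lay within the IR-VEH range. IR-PGE exceeded IR-VEH by 0.76 ± 0.13 (log2, adjusted p = 1.22e-05), and IR-VEH was below NI-VEH by -0.52 ± 0.11 (adjusted p = 9.49e-05). The dmPGE2 effect differed between 24 h and 1 h by 0.82 ± 0.18 (adjusted p = 4.33e-04).

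**Figure D2:**
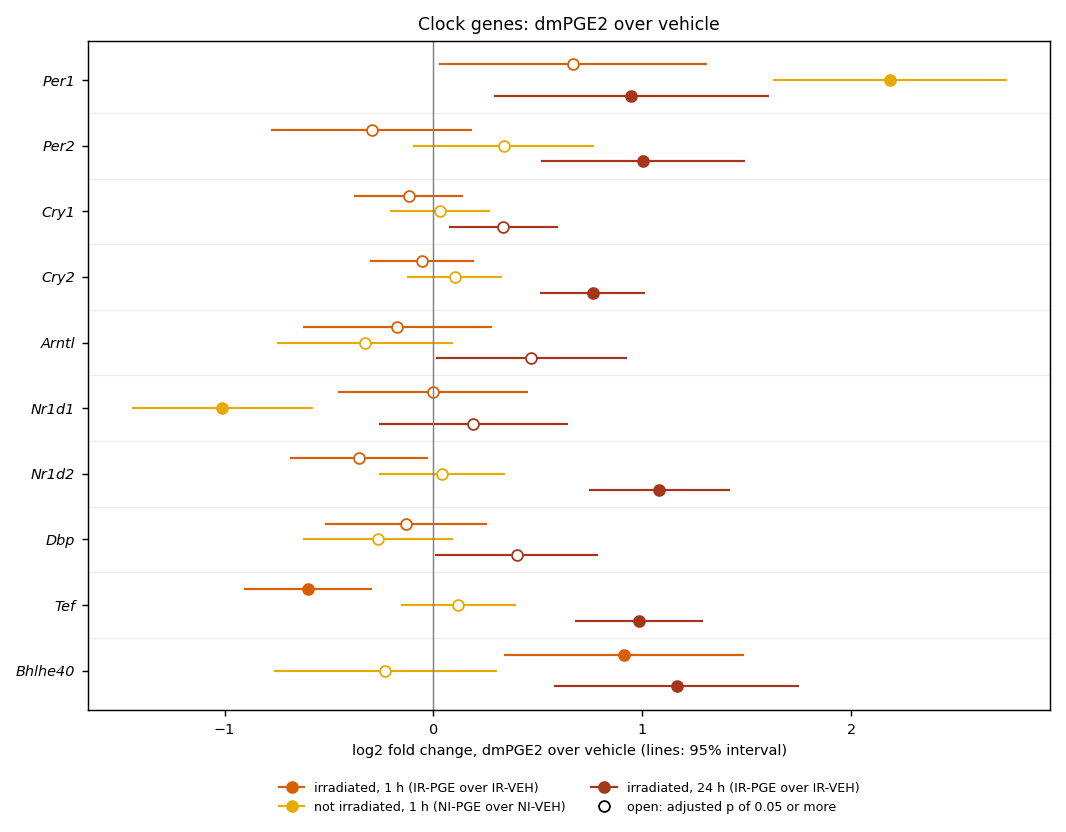
Log2 fold change of each clock gene with dmPGE2 over vehicle, in irradiated mice at 1 h, in non-irradiated mice at 1 h and in irradiated mice at 24 h. Points are edgeR estimates, lines 95% intervals, and filled points are called at an adjusted p below 0.05. Per1 without radiation reaches 2.18, and at 24 h Nr1d2, Bhlhe40, Per2 and Tef lie near 1.

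Arntl, the activator of the loop, was lower than baseline in all 3 comparisons of IR-PGE or 24 h IR-VEH with NI-VEH. It had 19.5, 28.2 and 31.9 CPM in IR-PGE and 19.2, 27.3 and 56.5 CPM in IR-VEH at 1 h, against 28.4, 37.1 and 78.7 CPM in NI-VEH. IR-PGE at 1 h was lower than NI-VEH by -0.63 ± 0.20 (log2, adjusted p = 0.0221; 0.0538 without IR-PGE 7). For IR-VEH at 1 h the log2 fold change was -0.45 ± 0.20 (adjusted p = 0.125), and -0.65 (adjusted p = 0.0195) without IR-VEH 6, the library at 56.5 CPM. In NI-PGE Arntl averaged 33.3 ± 12.9 CPM (SD, n = 7), and its log2 fold change over NI-VEH of -0.33 was not called (adjusted p = 0.397).

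At 24 h Arntl averaged 27.9 ± 12.4 CPM in IR-PGE and 20.1 ± 4.41 CPM in IR-VEH (SD, n = 8 each), against 41.7 ± 14.7 CPM in NI-VEH (n = 15). Over NI-VEH the log2 fold change was -0.58 ± 0.20 in IR-PGE (adjusted p = 0.0198; 0.0581 without IR-PGE 8) and -1.05 ± 0.21 in IR-VEH (adjusted p = 3.00e-05). IR-PGE over IR-VEH gave 0.47 with a 95% interval from 0.01 to 0.92, which was not called (adjusted p = 0.131; 0.0372 without IR-PGE 8). Between times Arntl fell in IR-VEH by 0.60 ± 0.23 on the log2 scale (adjusted p = 0.0244; 0.133 without IR-VEH 6 of 1 h).

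Nr1d1, the repressor of Arntl, was lowest in the 1 h groups. It had 7.19, 10.5 and 16.1 CPM in IR-PGE and 3.21, 12.8 and 14.5 CPM in IR-VEH at 1 h, 8.09, 11.5 and 15.6 CPM in NI-PGE, and 16.2, 23.1 and 28.9 CPM in NI-VEH. All 23 treated libraries of 1 h lay below all 15 baseline libraries, and the 3 treated groups of 1 h overlapped each other almost wholly. Over NI-VEH it changed on the log2 scale by -1.04 ± 0.21 (adjusted p = 1.11e-04) in IR-PGE, -1.03 ± 0.21 (adjusted p = 1.45e-04) in IR-VEH and -1.01 ± 0.22 (adjusted p = 5.72e-04) in NI-PGE. IR-PGE over IR-VEH gave 0.00, with a 95% interval from -0.46 to 0.45. The difference between the dmPGE2 effects with and without radiation was 1.01 ± 0.31 (adjusted p = 0.0607), and its adjusted p ran from 0.0405 to 0.12 as 1 library was left out. DESeq2 called it (1.02, adjusted p = 0.0275).

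At 24 h Nr1d1 was spread widely in IR-PGE, at 6.21, 16.4 and 30.9 CPM, against 8.01, 16.8 and 19.4 CPM in IR-VEH. The 3 IR-PGE libraries that stand apart, 5 to 7, gave its 3 highest values (20.3, 29.5 and 30.9 CPM). Nr1d1 rose between 1 h and 24 h in IR-PGE by 0.70 ± 0.23 (log2, adjusted p = 0.0126), but by 0.22 (adjusted p = 0.491) without those libraries, and the call also ended without IR-PGE 7 alone (adjusted p = 0.0531). Without them IR-PGE at 24 h was below NI-VEH by -0.82 (adjusted p = 0.00292), where the value with all 8 libraries was -0.34 ± 0.20 (adjusted p = 0.186). IR-VEH at 24 h was below NI-VEH by -0.53 ± 0.20 (adjusted p = 0.0254), a call that ended without IR-VEH 2 (adjusted p = 0.0801) and with the baseline summed per tag (adjusted p = 0.0578).

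Nr1d2, which encodes the second REV-ERB repressor, was not called at 1 h and was the member with the smallest adjusted p in 24 h IR-VEH against NI-VEH. At 1 h it averaged 70.7 ± 16.3 CPM in IR-PGE and 90.6 ± 13.4 CPM in IR-VEH (SD, n = 8 each), and 76.6 ± 9.89 CPM in NI-PGE (n = 7), against 74.5 ± 13.98 CPM in NI-VEH (n = 15). At 24 h it had 45.8, 75.1 and 107 CPM in IR-PGE and 14.5, 36.4 and 51.5 CPM in IR-VEH, against 55.8, 80.5 and 97.8 CPM in NI-VEH. Every 24 h IR-VEH library lay below every baseline library, and 1 IR-PGE library lay within the IR-VEH range.

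The log2 fold change of Nr1d2 at 24 h was 1.08 ± 0.17 (adjusted p = 4.67e-06) for IR-PGE over IR-VEH and -1.04 ± 0.15 (adjusted p = 9.22e-08) for IR-VEH over NI-VEH. IR-PGE over NI-VEH gave 0.04, with a 95% interval from -0.25 to 0.33. Both calls also passed a test against a fold change of 1.5 (adjusted p = 0.0297 and 0.00565). Between times IR-VEH fell by 1.32 ± 0.17 on the log2 scale (adjusted p = 3.48e-09), with no overlap. The dmPGE2 effect was larger at 24 h than at 1 h by 1.44 ± 0.24 (adjusted p = 8.37e-06).

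**Figure D3:**
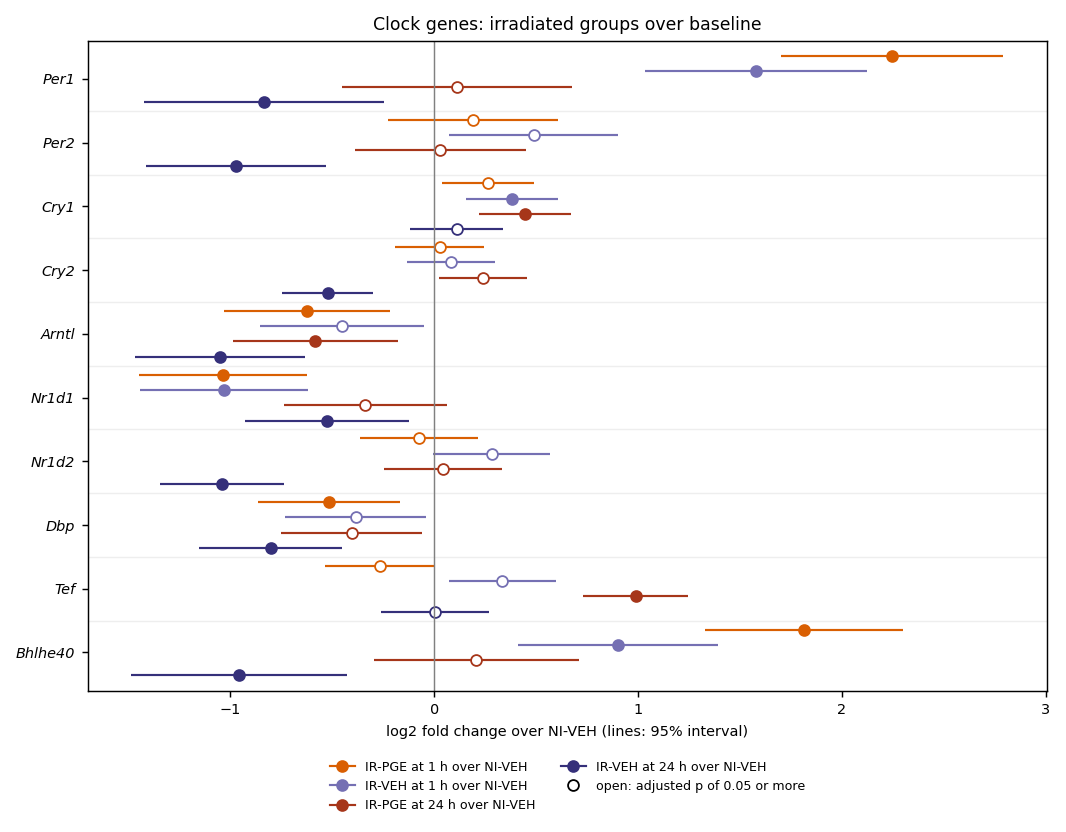
Log2 fold change of each clock gene in the 4 irradiated groups over the pooled non-irradiated vehicle baseline. Points are edgeR estimates, lines 95% intervals, and filled points are called at an adjusted p below 0.05. At 1 h Per1 and Bhlhe40 lie to the right and Nr1d1 to the left, and at 24 h 8 genes of IR-VEH are called lower, against 1 of IR-PGE.

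Tef, which encodes an activator at D-boxes, was lower with dmPGE2 than with vehicle in irradiated mice at 1 h and higher at 24 h. At 1 h it had 30.1, 48.5 and 56.9 CPM in IR-PGE and 51.2, 71.7 and 84.7 CPM in IR-VEH, 50.0, 57.6 and 68.2 CPM in NI-PGE, and 36.1, 50.9 and 80.1 CPM in NI-VEH. At 24 h it had 67.2, 108 and 142 CPM in IR-PGE and 36.3, 59.2 and 66.8 CPM in IR-VEH. At 1 h 4 IR-PGE libraries overlapped the IR-VEH range from below. At 24 h the groups did not overlap, by a margin of less than 1 CPM.

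IR-PGE was lower than IR-VEH at 1 h by -0.60 ± 0.15 (log2, adjusted p = 0.00343) and higher at 24 h by 0.98 ± 0.15 (adjusted p = 4.54e-06). The difference between these effects was 1.58 ± 0.22 (adjusted p = 1.65e-07), and it also passed a test against a fold change of 1.5 (adjusted p = 2.44e-04). IR-PGE at 24 h exceeded NI-VEH by 0.99 ± 0.13 (adjusted p = 1.21e-08), while IR-VEH at 24 h gave 0.01 over NI-VEH, with a 95% interval from -0.26 to 0.27. At 1 h the dmPGE2 effects with and without radiation differed by -0.72 ± 0.20 (adjusted p = 0.0353). That call ended with the baseline summed per tag (-0.71, adjusted p = 0.0507), and without any 1 of 10 libraries (IR-PGE 4, 6 and 7, IR-VEH 2 to 5, NI-PGE 2, 3 and 7), where the adjusted p reached 0.0698 at the most.

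Dbp, the sister gene of Tef, was low throughout and highest in the baseline. It averaged 9.34 ± 2.11 CPM in IR-PGE and 10.2 ± 2.78 CPM in IR-VEH at 1 h (SD, n = 8 each), 11.1 ± 1.70 CPM in NI-PGE (n = 7), 10.1 ± 3.96 CPM in IR-PGE and 7.66 ± 1.95 CPM in IR-VEH at 24 h (n = 8 each), and 13.4 ± 2.17 CPM in NI-VEH (n = 15). It was lower than NI-VEH in 24 h IR-VEH by -0.80 ± 0.18 (log2, adjusted p = 1.38e-04) and in 1 h IR-PGE by -0.52 ± 0.17 (adjusted p = 0.0274). The call of 1 h IR-PGE ended with the baseline summed per tag (adjusted p = 0.0774) and without IR-PGE 2, 4 or 6 (adjusted p at most 0.0657). For IR-VEH at 1 h the log2 fold change was -0.39 (adjusted p = 0.126), and the adjusted p was 0.0402 without IR-VEH 3. No comparison of dmPGE2 with vehicle called Dbp. At 24 h IR-PGE over IR-VEH gave 0.40 (adjusted p = 0.134), and the adjusted p was 0.0154 without IR-PGE 5, the library with the lowest level at 2.62 CPM. Since its exons overlap Sphk2, part of its counts may belong to that gene.

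Bhlhe40 was higher in both irradiated groups at 1 h and was not called with dmPGE2 alone. It had 51.7, 70.2 and 218 CPM in IR-PGE and 27.8, 45.6 and 147 CPM in IR-VEH at 1 h, 15.2, 29.0 and 35.8 CPM in NI-PGE, and 16.6, 30.9 and 51.8 CPM in NI-VEH. In IR-PGE 3 of the 8 libraries (3, 4 and 6) stood at 149 CPM or more and the other 5 between 51.7 and 73.6 CPM, while in IR-VEH 1 library (6) was at 147 CPM and the rest at 61.01 CPM or less. All IR-PGE libraries lay above all NI-PGE libraries.

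The log2 fold change of Bhlhe40 at 1 h was 2.04 ± 0.31 (adjusted p = 1.99e-05) for IR-PGE over NI-PGE and 1.81 ± 0.24 (adjusted p = 4.46e-08) for IR-PGE over NI-VEH. For IR-VEH over NI-VEH it was 0.90 ± 0.24 (adjusted p = 0.00614), and 0.53 (adjusted p = 0.129) without IR-VEH 6. For NI-PGE over NI-VEH it was -0.23, with a 95% interval from -0.77 to 0.30. IR-PGE over IR-VEH gave 0.91 ± 0.29 (adjusted p = 0.0223), a call that ended with the 2 groups fitted alone (adjusted p = 0.135) and without any 1 of 7 libraries (IR-PGE 3, 4 and 6, IR-VEH 1, 2, 4 and 7), where the adjusted p reached 0.0975 at the most. The difference between the dmPGE2 effects with and without radiation was 1.14 ± 0.39 (adjusted p = 0.114), and 0.00739 without IR-VEH 6.

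At 24 h Bhlhe40 had 21.7, 32.8 and 56.5 CPM in IR-PGE and 12.3, 15.9 and 23.5 CPM in IR-VEH. IR-PGE exceeded IR-VEH by 1.16 ± 0.29 (log2, adjusted p = 0.0026), and by 0.81 (adjusted p = 0.114) without libraries 5, 6 and 7 that stand apart. IR-VEH at 24 h was below NI-VEH by -0.96 ± 0.26 (adjusted p = 0.00213). Against 1 h it fell by 1.86 ± 0.30 in IR-VEH (adjusted p = 6.50e-07) and by 1.61 ± 0.29 in IR-PGE (adjusted p = 1.55e-05) on the log2 scale.

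Baseline libraries differed in ways that followed the tag for some members. Between baseline libraries of the same tag, Per1 differed by a median of 0.24 on the log2 scale (7 pairs, at most 0.45), against 0.86 between tags (98 pairs, at most 2.41). For Bhlhe40 these medians were 0.22 within and 0.67 between tags, and for Tef 0.14 and 0.37. For Cry1 (0.19 and 0.18), Arntl (0.30 and 0.31) and Nr1d1 (0.23 and 0.23) pairs of the same tag were about as far apart as other pairs, and for Per2 they were further apart (0.58 and 0.51). Pairs share libraries, so these values are given without a test.

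**Figure D4:**
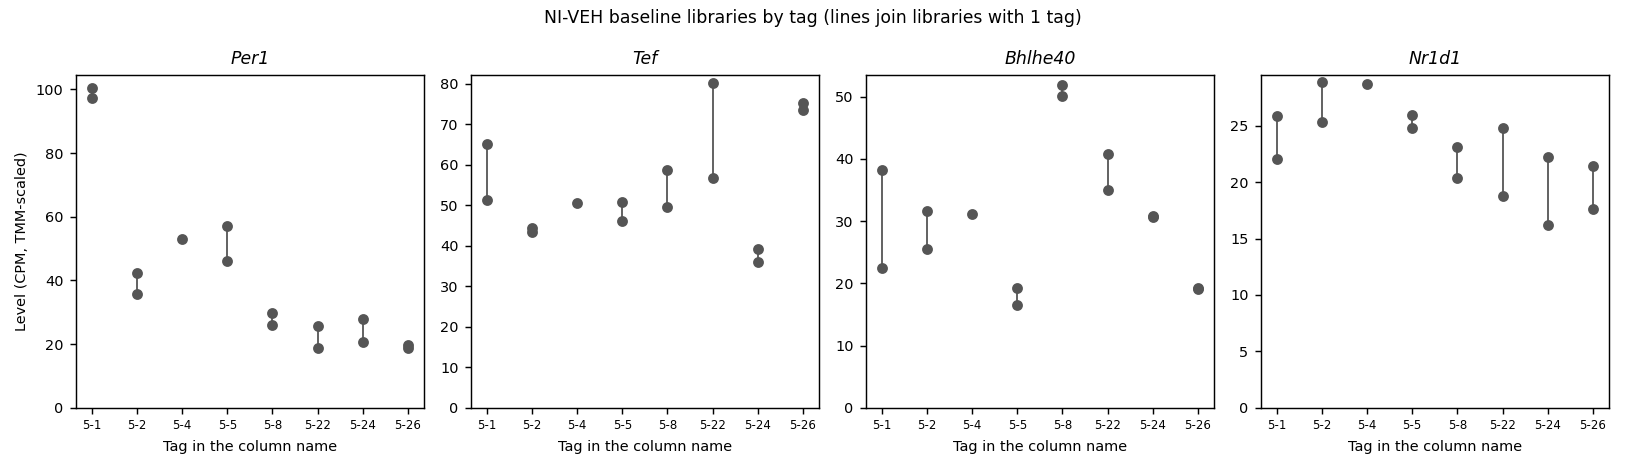
Levels of Per1, Tef, Bhlhe40 and Nr1d1 in the 15 NI-VEH libraries, in CPM from 0, by the tag in the column name. Points are libraries and lines join those of 1 tag. Both libraries of tag 5-1 hold the highest Per1 levels, 97.2 and 100.6 CPM, while Nr1d1 runs from 16.2 to 28.9 CPM with little order by tag.

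Once the group means were removed, few members varied together between libraries. Of 45 pairs over 54 libraries, 2 passed a permutation test within groups, counting both signs of r (100000 resamples, Benjamini-Hochberg over the 45 pairs). Nr1d2 and Tef gave Pearson's r = 0.50 (permutation p = 2.8e-04, adjusted p = 0.0126) and Spearman's rho = 0.39 (permutation p = 0.0202, adjusted p = 0.239). Per2 and Tef gave r = 0.45 (permutation p = 0.00176, adjusted p = 0.0396) and rho = 0.31 (permutation p = 0.0699, adjusted p = 0.305). Without the 2 libraries farthest from the median, r was 0.42 for Nr1d2 and 0.37 for Per2 with Tef.

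Tef and Nr1d2 were positively related in 5 of the 6 groups, with r from 0.24 in 1 h IR-VEH to 0.83 in 24 h IR-PGE, and negatively in NI-PGE (r = -0.93, n = 7). Tef and Per2 were positively related in all 6 groups, with r from 0.15 to 0.73. Neither pair was called by rank or without the 24 h IR-PGE group, where r over the other 46 libraries was 0.43 for Nr1d2 and 0.39 for Per2 with Tef (permutation p = 0.00568 and 0.0123, adjusted p = 0.188 for both). Of all tested genes, 1.19% were correlated with Nr1d2 at least as strongly as Tef was, and 3.99% with Per2. The adjusted p of no pair with Arntl was below 0.05.

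**Figure D5:**
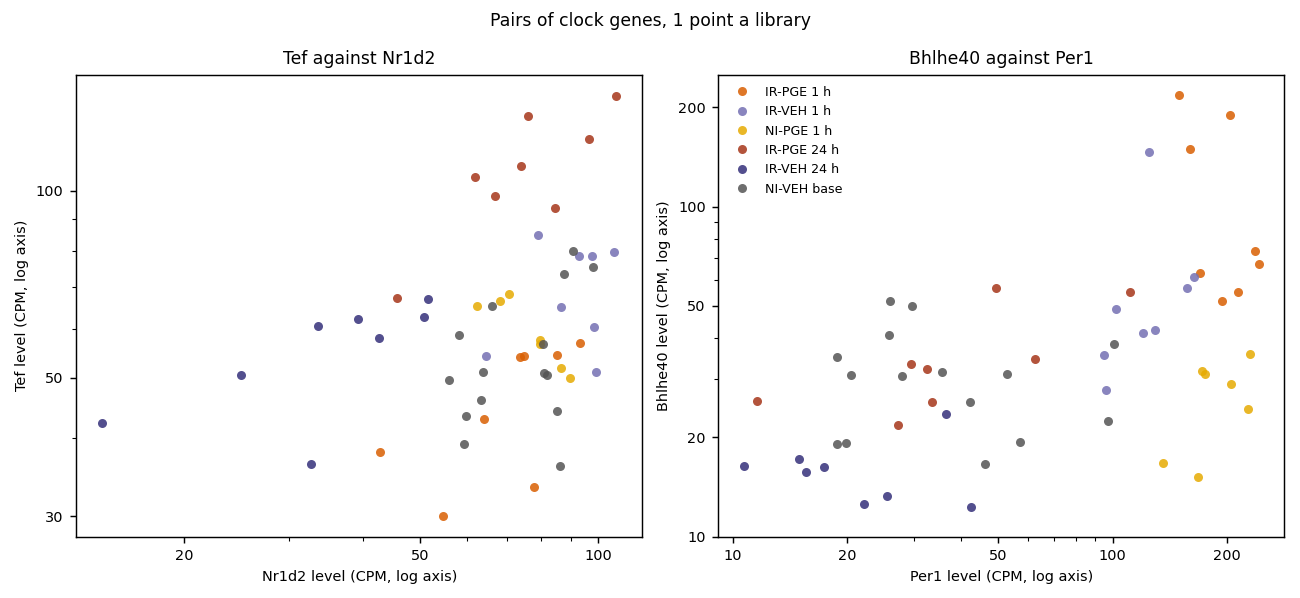
Levels of 2 pairs of clock genes in the 54 libraries, with Tef against Nr1d2 on the left and Bhlhe40 against Per1 on the right. Both axes are CPM on a log scale, and each point is a library coloured by group. The 24 h IR-VEH libraries lie at low Nr1d2 (14.5 to 51.5 CPM), the 24 h IR-PGE libraries at high Tef (67.2 to 142 CPM), and NI-PGE shows high Per1 (136 to 229 CPM) with Bhlhe40 at 35.8 CPM or less.

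The genes whose levels ran most like those of Per1 over the 54 libraries, among 10755 genes, were Cish (r = 0.92), Fosl2 (0.92), Sik1 (0.90), Klf13 (0.89) and Maff (0.89). For Bhlhe40 they were Ier3 (0.79), Csrnp1 (0.78), Mafk (0.71), Zfp36 (0.70) and Arid5a (0.69), and for Dbp they were Dguok (0.78), Gm12942 (0.73), Pafah2 (0.73), Abcg1 (0.68) and Selenbp1 (0.68). These correlations span all groups, so they follow the differences between groups as well as those between libraries.

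All 24 other clock genes of a list drawn up for this comparison were tested. IR-PGE against IR-VEH at 1 h had 1 higher and 2 lower, close to the 14.8% of all genes. Csnk1e, a kinase of the PER proteins, was higher (log2 fold change 0.50, adjusted p = 0.00127), and Clock, the partner of Arntl, was among the lower (-0.62, adjusted p = 0.0287). NI-PGE against NI-VEH had 2 higher, Csnk1e (0.53) and Gsk3b (0.31), and 2 lower, among them Wee1 (-0.53), on the log2 scale (11.1% of all genes called). IR-VEH against NI-VEH at 1 h had 6 higher and 2 lower (16% of all genes called), led by Usp2, a deubiquitinase (1.29), Nfil3, the repressor at D-boxes (0.74), and Rora, the activator of Arntl (0.53), with Hlf (-0.45) and Wee1 (-0.43) lower. Radiation under dmPGE2, IR-PGE against NI-PGE, called 0 of the 24.

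At 24 h IR-VEH against NI-VEH called 49.7% of all genes, 26.5% lower and 23.3% higher. Of the 24 other clock genes 11 were lower there and 2 higher, near that share in total, but with more of them lower. Among those with the largest log2 fold changes were Bhlhe41, which encodes DEC2 (6.60), Ciart (-1.35), Rora (-1.33) and Per3 (-0.76). Bhlhe41 was near 0 in the baseline, at 0.0414 ± 0.0553 CPM (n = 15), and averaged 1.01 ± 0.821 CPM in IR-PGE and 4.63 ± 2.48 CPM in IR-VEH at 24 h (SD, n = 8 each), so its fold change rests on few reads. IR-PGE against IR-VEH at 24 h had 5 higher and 4 lower, where 23.9% of all genes were called, and 1 higher and 0 lower without IR-PGE 5, 6 and 7 (edgeR; 7.72%). With all libraries they were led by Arntl2 (-3.89), Bhlhe41 (-2.19), Ciart (1.85), Rora (1.01) and Nfil3 (0.90). Arntl2 did not exceed 2.05 CPM in any 24 h library.

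Per1 was measured beside 19 tested genes known as targets of cAMP and CREB. This list, the other clock genes and the glucocorticoid targets were chosen with earlier results of these data known. Their shares of called genes are therefore not independent of these data. NI-PGE against NI-VEH had 12 of the 19 higher and 1 lower, where 11.1% of all genes were called, with the largest log2 fold changes in Nr4a1 (5.34), Sik1 (4.10), Nr4a3 (3.70), Crem (3.69) and Fosl2 (3.67). IR-VEH against NI-VEH at 1 h had 12 higher and 2 lower (16% of all genes called), led by Atf3 (3.20), Nr4a3 (3.14), Sik1 (2.58), Fosl2 (2.49) and Crem (2.08). Atf3 averaged 0.292 CPM in NI-VEH and 2.71 CPM in IR-VEH at 1 h. Nr4a3 averaged 0.146 CPM in NI-VEH, 1.32 CPM in IR-VEH at 1 h and 1.96 CPM in NI-PGE. The fold changes of Atf3 and Nr4a3 thus rest on few reads. Sik1, a kinase induced by cAMP, averaged 378 ± 104 CPM in IR-PGE, 129 ± 29.0 CPM in IR-VEH and 371 ± 76.5 CPM in NI-PGE at 1 h, against 21.6 ± 9.42 CPM in NI-VEH. Its order of groups was the same as that of Per1 at 1 h. The dmPGE2 effects with and without radiation were called different for 4 of the 19 (2.97% of all genes). Sik1 (-2.55, adjusted p = 1.75e-05), Fosl2 (-2.42, adjusted p = 0.0374) and Cited2 (-0.71, adjusted p = 0.0155) had the sign of Per1, and Id1 had the opposite one (1.54, adjusted p = 0.0094). Unlike Per1, Cited2 was lower with dmPGE2 than with vehicle, and its difference was the larger one with radiation. It averaged 51.2 CPM in NI-PGE against 206 CPM in NI-VEH, and 53.2 CPM in IR-PGE against 350 CPM in IR-VEH at 1 h.

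Of 16 tested glucocorticoid targets, which answer to the hormone that also sets clocks in tissues, 6 were higher and none lower in IR-VEH than in NI-VEH at 1 h (16% of all genes called), and 5 were higher and 2 lower in NI-PGE than in NI-VEH (11.1%). At 24 h 12 of the 16 were higher and none lower in IR-PGE than in IR-VEH, where 12.4% of all genes were higher, and 3 were higher without IR-PGE 5, 6 and 7 (3.94% of all genes). Tsc22d3, a classical target, gave 1.68 ± 0.35 (log2, adjusted p = 4.37e-04), and 0.49 (adjusted p = 0.345) without those libraries, which held its 3 highest values (3067, 930 and 1562 CPM, against 291 to 526.4 CPM in the other 5). Tsc22d3 averaged 956 ± 948 CPM in IR-PGE and 298 ± 108 CPM in IR-VEH at 24 h, against 1071 ± 610 CPM in NI-VEH. In IR-VEH against NI-VEH at 24 h 2 were higher and 5 lower, in total a share near that of all genes (49.7%, with 23.3% higher and 26.5% lower). Dusp1 stands in both the cAMP and the glucocorticoid list, so the 2 lists are not separate measurements, and which signal moved with Per1 was not tested.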

How the data were processed

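Each library holds RNA of sorted HSC, made with SMART-Seq v4 and Nextera XT per the labels' protocols; neither marks strand or tags molecules, so counts are of reads. The submitters' processing notes name STAR 2.5.2b, the build mm10 and featureCounts of Subread 1.5.1. Per the file headers, the table deposited by the authors holds read counts per gene, which are unscaled whole numbers, with the summed exon length. For the annotation and for how strand and multiply mapped reads were handled, the settings were not given in the sources used here. Length was used only for levels per kilobase.

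The 54 columns name part of a group (24 h columns no radiation, the others no time), and each was given to the only group that its name and the labels' numbers per group leave. Libraries are numbered in table order, which pairs nothing. The labels state separate mice per group, which the repeated baseline tags leave unsettled; p values measure the spread between these libraries, which may be technical.

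edgeR 4.0.16 (R 4.3.3) fitted 1 mean per group over all 54 libraries (TMM, filterByExpr with a count minimum of 10, robust quasi-likelihood, common dispersion 0.121, 48 residual degrees of freedom), with 12 comparisons and Benjamini-Hochberg adjustment over 14320 genes. SE is the absolute log2 fold change over the root of F. Log2 CPM for correlations used a prior count of 3. Motifs, correlations and figures used Python with scipy and matplotlib. The fit was tested on simulated data. Alternatives were DESeq2 1.42.0, RLE scaling, no filter, a fold change minimum of 1.5, fits of the compared groups alone, the column tag as a block, and libraries left out; summing or averaging the baseline per tag, leaving out tag 5-1, leaving out 24 h IR-PGE library 3 besides 5 to 7, HSC markers without 3 genes, and the gene lists without 24 h IR-PGE libraries 5 to 7 were added after seeing the data. Tags did not pair the libraries by the rule in the closing section, which does not show that the libraries are unpaired.

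The members and gene lists were chosen with earlier results of these data known. All members are named; of each other list, at most 5 called genes with the largest absolute log2 fold change per comparison (some are not reported here); and for Per1, Bhlhe40 and Dbp the 5 genes with the highest r.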

Additional observations from a re-analysis of the deposited data

Results flagged for a closer look

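In 5 of 50 gene and group combinations examined 1 library stood far from the rest of its group; chance gives about 1 in 20. Cry1 was at 43.5 CPM in NI-PGE library 5, Nr1d1 at 8.01 CPM in 24 h IR-VEH library 2, Dbp at 16.3 CPM in 1 h IR-VEH library 3, Bhlhe40 at 23.5 CPM in 24 h IR-VEH library 1 and Bhlhe40 at 147 CPM in 1 h IR-VEH library 6.

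The effect of dmPGE2 differed between groups of mice in tests of the difference itself (edgeR's quasi-likelihood test, Benjamini-Hochberg over all genes). With radiation against without it at 1 h, the log2 difference was -1.51 for Per1 (adjusted p = 0.036) and -0.72 for Tef (adjusted p = 0.0353). In irradiated mice at 24 h against 1 h it was 1.30 for Per2, 0.82 for Cry2, 1.44 for Nr1d2 and 1.58 for Tef, each more positive at 24 h. The 1 h calls of Per1 and Tef, with radiation against without it, ended when the baseline was summed per tag. They also ended without some single libraries and under a test against a fold change of 1.5.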

How the results depend on the processing

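No member reversed its direction in any called comparison under any alternative run. Of 890 recomputed member results, 823 stayed on their side of the threshold, 46 lost a call and 21 gained one. Under a test against a fold change of 1.5 the number of members called became 0 (dmPGE2 in irradiated mice at 1 h), 1 (dmPGE2 alone), 1 (radiation with vehicle at 1 h), 0 (dmPGE2 by radiation), 2 (1 h IR-PGE against baseline), 1 (dmPGE2 at 24 h), 2 (radiation with vehicle at 24 h), 1 (24 h IR-PGE against baseline) and 2 (dmPGE2 effect, 24 h minus 1 h). With the baseline summed per tag dmPGE2 by radiation called 0 members, and without the 3 libraries that lie apart 24 h IR-PGE against baseline called 5. Leaving out 1 library at a time gave 1 to 2 members for dmPGE2 in irradiated mice at 1 h and 0 to 3 for dmPGE2 by radiation; over all comparisons 11 of 47 calls were lost and 17 of 73 uncalled values gained a call without some library, with no called value changing sign. The number of covarying pairs was 0 by rank and 0 without the 24 h IR-PGE group. The causes were not tested.

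With the tag as a replicate block, 4 members were called for dmPGE2 in irradiated mice at 1 h and 9 for radiation with vehicle at 1 h. The added calls were Per1 (0.64, adjusted p = 0.0484) and Nr1d2 (-0.36, adjusted p = 0.0161) in the first, and Per2 (0.55, adjusted p = 0.024), Arntl (-0.43, adjusted p = 0.0463), Nr1d2 (0.28, adjusted p = 0.0268), Dbp (-0.38, adjusted p = 0.0261) and Tef (0.37, adjusted p = 0.0119) in the second. Nr1d1 was added for dmPGE2 by radiation (1.10, adjusted p = 0.0013), and Per1 was lost for dmPGE2 at 24 h (0.79, adjusted p = 0.235). By the rule used, every same-tag pair of deviations had to correlate above 0.1 over all tested genes, and no comparison of groups met this. The lowest correlation between IR-PGE and IR-VEH was 0.0813 at 1 h and -0.0039 at 24 h. At 1 h 7 of 8 such pairs exceeded 0.1, and at 24 h 0 of 8, so the outcome lies near the limit at 1 h. Between NI-PGE and NI-VEH 11 of 13 same-tag pairs exceeded 0.1, and between IR-PGE and NI-PGE at 1 h 5 of 7. With NI-VEH it was 9 of 15 for 1 h IR-PGE and 7 of 15 for 1 h IR-VEH. Same-tag baseline pairs, with r from 0.0735, would not meet the rule either. Failing it thus does not show that the libraries are unpaired. A block could not be fitted to 24 h groups against NI-VEH or against 1 h, which share no tag. It moved no other number of calls by over 1.5 times.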
